A study of Homo sapiens with 24 samples.

Results

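The comparison asks how RNA levels differed, 4 h into a transcription block under stress, between cells carrying an intact RNA-binding protein and cells carrying a version that lacks its RNA-binding domain. It rests on 4 of the 24 libraries of the series: 2 from QKI7-WT cells and 2 from QKI7-dKH cells. All 12547 endogenous rows were compared, and the 38 ERCC rows (external spike-in RNAs) were left out. Both groups are U2OS, an established human osteosarcoma line, targeted at QKI with a guide (sgQKI) and then supplied again with QKI7. The added protein was intact in QKI7-WT and was labelled as lacking its KH domain in QKI7-dKH. Sodium arsenite at 200 µM was combined with actinomycin D at 5 µg/mL for both groups, and polyA RNA was taken after 4 h. The same cells at 0 h and 8 h are used below for comparison. So are 2 other genotypes at 4 h, each with 2 libraries and under the same treatment: sgQKI+EV, which carry the QKI guide and only an empty vector, and sgNS+EV, the control cells with the same vector. Whether the lines are clones or pools, and which promoter drives the added QKI7, are not stated in the labels. They also do not say whether the 2 libraries of a group came from separate cultures, so p-values measure the spread between libraries, which may be technical.

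QKI is an RNA-binding protein of the STAR family. Its KH domain reads a short element, ACUAAY, which is often found in 3′ UTRs, and the protein acts in splicing, in mRNA stability and in translation. QKI7 is a mainly cytoplasmic isoform. It has also been linked to mRNAs carrying internal N7-methylguanosine, written by METTL1 with WDR4, and to stress granules, which arsenite induces and which G3BP1 nucleates. Actinomycin D stops transcription, so a level at 4 h holds both the level at the start and what was lost since. In bulk RNA, fewer cells with a transcript and less of it per cell cannot be told apart.

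The values are a spike-in-normalised signal on a linear scale with no read counts behind them, so the depth is unknown. The ERCC rows summed to 11940 and 11561 in the QKI7-WT libraries, against 11499 and 11554 in the QKI7-dKH libraries, and 11940 was the highest of the 24 libraries. Endogenous signal summed to 1137890 and 1089595 in the QKI7-WT libraries, against 1039348 and 1058561 in the QKI7-dKH libraries. Ribosomal RNA rows are part of that endogenous signal. Ribosomal RNA rows took 2.66% and 3.67% of it in QKI7-WT, against 6.19% and 4.67% in the other group, QKI7-dKH. Of 8 mesenchymal marker genes 6 were measured, whose QKI7-WT sums were 5874 and 5361, against QKI7-dKH sums of 4854 and 5035. None of 8 blood cell markers was among the measured genes, and 4 of 8 epithelial markers were, whose QKI7-WT sums were 1204 and 1280, against QKI7-dKH sums of 1193 and 1254.

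The 2 QKI7-WT libraries did not agree well with each other. Their log2 values correlated across genes with Pearson r = 0.9889, the lowest of the 12 groups, against 0.9978 for QKI7-dKH, and the other 11 groups ran between 0.9934 and 0.9982. The difference between replicates 1 and 2 had an SD over genes of 0.31 log2 for QKI7-WT, against 0.13 log2 for QKI7-dKH. Each QKI7-WT library is therefore also given on its own, against the mean of both QKI7-dKH libraries. Replicate 1 lay above that mean for 71.4% of genes with a median difference of 0.16 log2, and replicate 2 for 64.0% of genes with a median of 0.05 log2. The median over all genes with both libraries was 0.09 log2.

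The disagreement followed the base composition of the transcripts. Genes were ordered by GC content and split into 10 bins of equal size. In the bin with the lowest GC content (median 37.4%), the median difference was 0.47 log2 for replicate 1 and 0.03 log2 for replicate 2. In the bin with the highest (median 64.4%), it was -0.11 log2 for replicate 1 and 0.08 log2 for replicate 2. Across 11955 genes the Spearman correlation with GC content was -0.629 for replicate 1 and 0.118 for replicate 2, as a description over genes that share libraries. The gap between replicates 1 and 2 was also set against GC content in each group, with a Spearman correlation of -0.629 in QKI7-WT at 4 h. In the other 11 groups it ran from -0.65 (QKI7-WT at 0 h) to 0.415 (QKI7-dKH at 0 h). In QKI7-dKH at 4 h it was -0.378. A fit with every library corrected for GC content, chosen after seeing the data, kept 93 of the 103 genes called higher below. It also kept 19 of the 20 called lower, and only 19 of these had a GC value. The part of base composition beyond this correction was not tested. The main counts below are therefore also given without replicate 1.

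**Figure D1:**
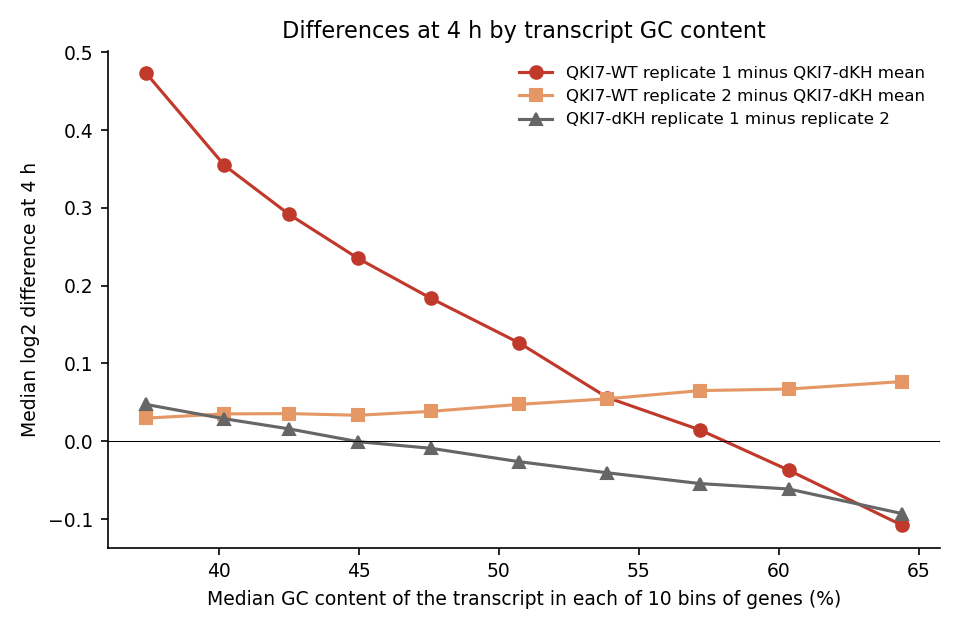
Median log2 difference at 4 h (vertical axis) in each of 10 bins of genes by GC content of the transcript in percent (horizontal axis), for each QKI7-WT library minus the QKI7-dKH mean and for QKI7-dKH replicate 1 minus replicate 2. QKI7-WT replicate 1 falls from 0.47 to -0.11 across the bins, and replicate 2 stays between 0.03 and 0.08.

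Replicate 1 and replicate 2 also lay near different genotypes. Over all genes, replicate 1 had a median absolute distance of 0.151 log2 to the sgNS+EV mean at 4 h, of 0.223 to the QKI7-dKH mean and of 0.296 to the sgQKI+EV mean. Replicate 2 had distances of 0.236 to sgNS+EV, 0.0969 to QKI7-dKH and 0.184 to sgQKI+EV. Of these 3 groups, replicate 1 was thus nearest to sgNS+EV and replicate 2 nearest to QKI7-dKH. LYPLA1, an acyl-protein thioesterase, shows the pattern, with a signal of 72.8 in QKI7-WT replicate 1 and 32.9 in replicate 2, against 33.5 and 31.4 in QKI7-dKH. It stood at 29.9 and 32.5 in sgQKI+EV and at 68.1 and 60.0 in sgNS+EV. HMGN5, a nucleosome-binding protein, had 37.5 and 19.2 in QKI7-WT, against 20.02 and 19.53 in QKI7-dKH, with 19.6 in each sgQKI+EV library and 37.4 and 34.3 in sgNS+EV. Both genes were picked for a wide gap between the QKI7-WT libraries. At 0 h LYPLA1 also had a higher replicate 1 in QKI7-WT (74.7 and 39.0), sgNS+EV (65.0 and 41.6) and sgQKI+EV (67.44 and 55.65). In QKI7-dKH at 0 h it had 58.5 and 69.6. HMGN5 had the same order of replicates in each group at 0 h, with 29.8 and 20.1 in QKI7-WT. Across genes the gap between the QKI7-WT libraries had a Pearson r of 0.68 with sgNS+EV minus sgQKI+EV at 4 h, and the gap between the QKI7-dKH libraries one of 0.30. The sgNS+EV minus sgQKI+EV difference had itself a Spearman correlation of -0.705 with GC content. The labels were used as given. Whether either QKI7-WT library at 4 h carries the wrong label or differs technically was not tested, and this bears on every QKI7-WT value at that time.

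QKI at 4 h was itself higher in QKI7-WT. Its signal was 50.5 and 32.8 in the QKI7-WT libraries, against 24.7 and 22.6 in the QKI7-dKH libraries, a difference of 0.76 log2 (SE 0.14, adjusted p = 0.0117). Replicate 1 stood 1.06 log2 above the QKI7-dKH mean and replicate 2 stood 0.46 above it, with no overlap between the groups. The call was lost without QKI7-WT replicate 1 (0.46 log2, adjusted p = 0.292), without either QKI7-dKH library and with library totals (0.67 log2, adjusted p = 0.0584). At 0 h the difference was 0.11 log2 (adjusted p = 0.587), and at 8 h it was -0.01 log2 (adjusted p = 0.975). The empty-vector cells had 15.4 and 17.1 in sgQKI+EV and 54.0 and 50.1 in sgNS+EV, and the row does not separate added from endogenous transcript. METTL1 had 20.1 and 24.7 in QKI7-WT, against 23.4 and 22.0 in QKI7-dKH (-0.02 log2, adjusted p = 0.935), so the groups overlapped. WDR4 differed by -0.13 log2 (adjusted p = 0.534). G3BP1 had 352 and 313 in QKI7-WT, against 292 and 294 in QKI7-dKH (0.18 log2, SE 0.07, adjusted p = 0.129).

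Over the transcriptome, 123 genes passed the test, 0.98% of those measured: 103 were higher in QKI7-WT (0.821%) and 20 were lower (0.159%). A gene is said to have passed at a Benjamini-Hochberg adjusted p under 0.05 over all genes, from the limma fit. That fit takes 1 spread per gene from all 12 groups. The gap between the QKI7-WT libraries at 4 h had an SD of 0.31 log2, against 0.118 to 0.208 in the other 11 groups. The SEs and p-values can therefore understate the spread in QKI7-WT at 4 h. For 4501 genes (35.9%) both QKI7-WT libraries lay above both QKI7-dKH libraries, and for 877 genes (6.99%) both lay below. Of the 103 genes that were higher, 97 had replicate 1 above replicate 2. The median difference of the 103 was 0.54 log2 for replicate 1 and 0.30 for replicate 2, against 0.16 and 0.05 over all genes. Replicate 1 thus had the larger median over all genes too. The share of all genes with replicate 1 above replicate 2 is not given. The gap between the QKI7-WT libraries was smaller in the genes that were lower, where 12 of the 20 had replicate 1 above replicate 2. Their medians were -0.59 log2 for replicate 1 and -0.65 for replicate 2. Without replicate 1, 16 genes were higher and 18 were lower; all 16 were among the 103, and 12 of the 20 lower genes kept their call. Without replicate 2, 3922 genes were higher and 588 lower. Scaling by library totals in place of the spike-ins gave 44 genes higher and 52 lower, and quantile normalisation gave 93 and 131. Without ribosomal RNA in the totals the split was 42 higher and 119 lower, and the median of all genes was then -0.02 log2, a shift of every gene that turns the sign of differences under about 0.1.

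**Figure D2:**
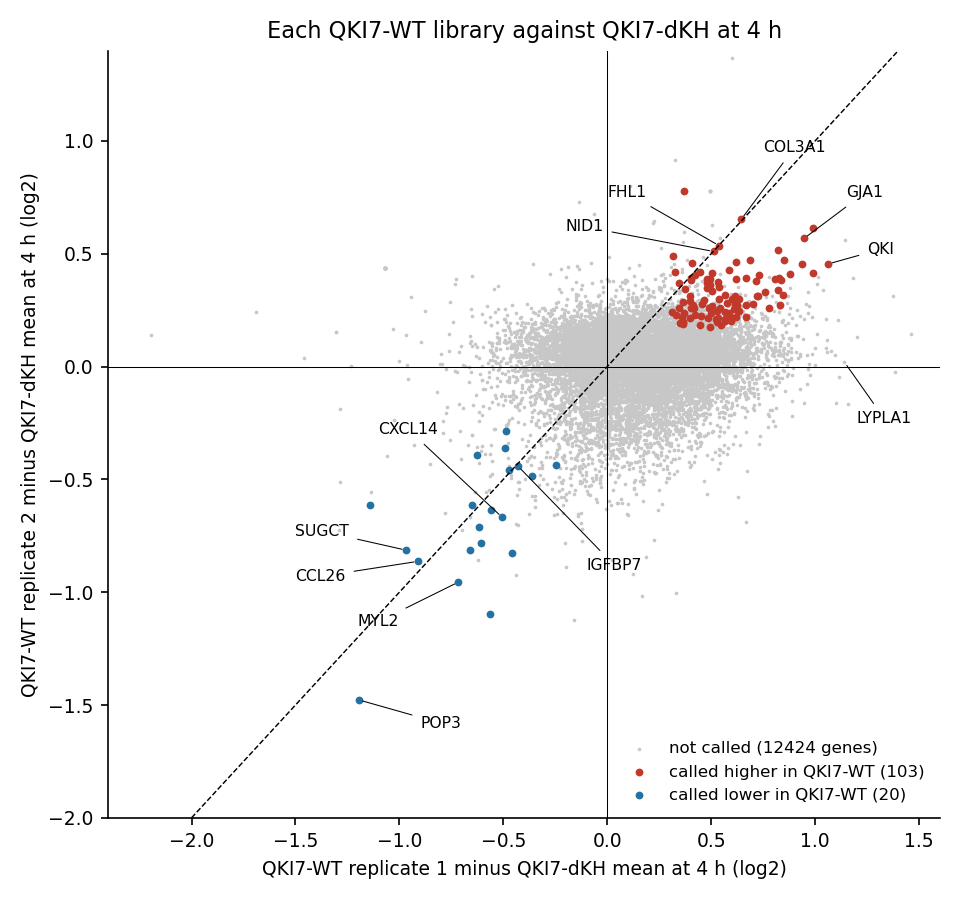
Each of the 12547 genes by its log2 difference from the QKI7-dKH mean at 4 h in QKI7-WT replicate 1 (horizontal axis) and in QKI7-WT replicate 2 (vertical axis); 1 gene lies outside the axes and the dashed line marks equal differences. The 103 genes higher in QKI7-WT (red) lie mostly right of the line, the 20 lower genes (blue) lie along it, and the grey cloud is wider along replicate 1.

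Of the 123 genes, 16 passed whichever of the 4 libraries was left out: 11 higher and 5 lower. They were picked out after their values were seen. All 16 also passed with library totals, with quantile normalisation and after a correction of every library for GC content, and all but PPP2CB (adjusted p = 0.0526) passed with totals without ribosomal RNA. In a fit of the 4 libraries alone limma called 0 genes, these included, with 565 genes at an unadjusted p under 0.05.

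The higher genes among them had quite different roles. GJA1, the connexin of most gap junctions, had a signal of 66.6 and 51.0 in QKI7-WT against 34.9 and 33.3 in QKI7-dKH, 1.69-fold (0.76 log2, SE 0.10, adjusted p = 0.000346). COL3A1, a fibrillar collagen chain, had 17.4 and 17.5 in QKI7-WT against 10.5 and 11.1 in QKI7-dKH (0.65 log2, SE 0.07, adjusted p = 9.52e-05). NID1, the basement membrane protein nidogen that bridges laminin and collagen, had 125 in both QKI7-WT libraries against 87.5 and 87.9 in QKI7-dKH (0.51 log2, SE 0.08, adjusted p = 0.00125). For COL3A1 and NID1 the QKI7-WT libraries were level with each other, while GJA1 stood higher in replicate 1. FHL1, a LIM-domain protein of muscle and the cytoskeleton, was level too, with 163 in both QKI7-WT libraries against 113 and 111 in QKI7-dKH (0.54 log2, SE 0.07, adjusted p = 0.000351). SEPT2, a septin that forms filaments at the division furrow, had 212 and 190 in QKI7-WT against 137 and 138 in QKI7-dKH (0.54 log2, adjusted p = 0.000172).

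CREB3L1, a membrane-bound transcription factor of the endoplasmic reticulum that acts on collagen genes in bone, had 34.2 and 27.5 in QKI7-WT against 18.5 and 19.3 in QKI7-dKH (0.67 log2, adjusted p = 0.00125). BHLHE41, a circadian transcriptional repressor, had 41.1 and 30.2 in QKI7-WT against 22.7 and 22.8 in QKI7-dKH (0.61 log2, adjusted p = 0.00131). CYTL1, a secreted cytokine-like protein, had 64.3 and 51.2 in QKI7-WT against 38.62 and 38.03 in QKI7-dKH (0.57 log2, adjusted p = 0.00109). In each of these regulators replicate 1 was the higher QKI7-WT library, and replicate 2 was still above both QKI7-dKH libraries. PPP2CB, a catalytic subunit of protein phosphatase PP2A, had 95.6 and 94.5 in QKI7-WT against 72.0 and 70.3 in QKI7-dKH (0.41 log2, adjusted p = 0.00109). TSPAN3, a tetraspanin, had 62.0 and 57.1 in QKI7-WT against 44.0 and 43.8 in QKI7-dKH (0.43 log2, adjusted p = 0.00125). MRFAP1L1 had 74.1 and 67.6 in QKI7-WT against 52.3 and 52.4 in QKI7-dKH (0.43 log2, adjusted p = 0.00181).

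Most of the higher genes held in their 3′ UTR the element that QKI is known to bind. The search was for ACTAAC or ACTAAT on the transcript strand of 1 GENCODE 29 transcript per gene, and overlapping matches were each counted. Of the 11 genes that were higher, 10 had at least 1 match, against 34.6% of all coding genes. Of the 5 that were lower 1 had a match, but their 3′ UTRs are short: 152 bases in SUGCT, 160 in CCL26, 258 in MYL2, 544 in IGFBP7 and 1170 in CXCL14. FHL1 had 4 matches in 1324 bases, SEPT2 had 5 in 2087, PPP2CB had 3 in 625, GJA1 had 2 in 1731 and MRFAP1L1 had none in 958. The matches closest to the stop codon are printed for 4 genes that were higher and for the lower gene with a match, to show the element in its surroundings, with the hexamer in capitals (5′ to 3′ on the transcript, GRCh38). The FHL1 window lies at chrX:136210548-136210577 on the plus strand, the COL3A1 window at chr2:189012409-189012438 (plus), the GJA1 window at chr6:121449425-121449454 (plus), the NID1 window at chr1:235977030-235977059 (minus) and the IGFBP7 window at chr4:57031206-57031235 (minus), each in a 3′ UTR within a single exon. A match is a description of the letters and not a binding site.
FHL1: tgctttcaaataACTAACacgaacttccag
COL3A1: ctggtcaagattACTAATatttgggaaggc
GJA1: agtacacatacaACTAATttatttgaacta
NID1: ataccaaagattACTAATtattcctctttg
IGFBP7: ttaatccaatccACTAACactttagttata

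The 5 lower genes among them were CCL26, CXCL14, IGFBP7, SUGCT and MYL2. CCL26, an eotaxin chemokine, had a signal of 40.4 and 41.8 in QKI7-WT against 74.3 and 79.6 in QKI7-dKH, 0.541-fold (-0.89 log2, SE 0.09, adjusted p = 1.26e-05). CXCL14, another chemokine, had 79.3 and 70.8 in QKI7-WT against 109 and 117 in QKI7-dKH (-0.59 log2, SE 0.08, adjusted p = 0.000441). IGFBP7, a secreted protein that binds insulin-like growth factors, had 64.9 and 64.4 in QKI7-WT against 86.0 and 89.5 in QKI7-dKH (-0.44 log2, SE 0.06, adjusted p = 0.0007). SUGCT, a mitochondrial CoA transferase of glutarate metabolism, had 10.0 and 11.3 in QKI7-WT against 20.2 and 20.9 in QKI7-dKH (-0.89 log2, SE 0.11, adjusted p = 0.000339). MYL2, a regulatory light chain of muscle myosin, had 28.49 and 23.98 in QKI7-WT against 46.2 and 48.8 in QKI7-dKH (-0.84 log2, SE 0.11, adjusted p = 0.000441). In each of these genes both QKI7-WT libraries lay well below both QKI7-dKH libraries, and neither QKI7-WT library set the difference alone.

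**Figure D3:**
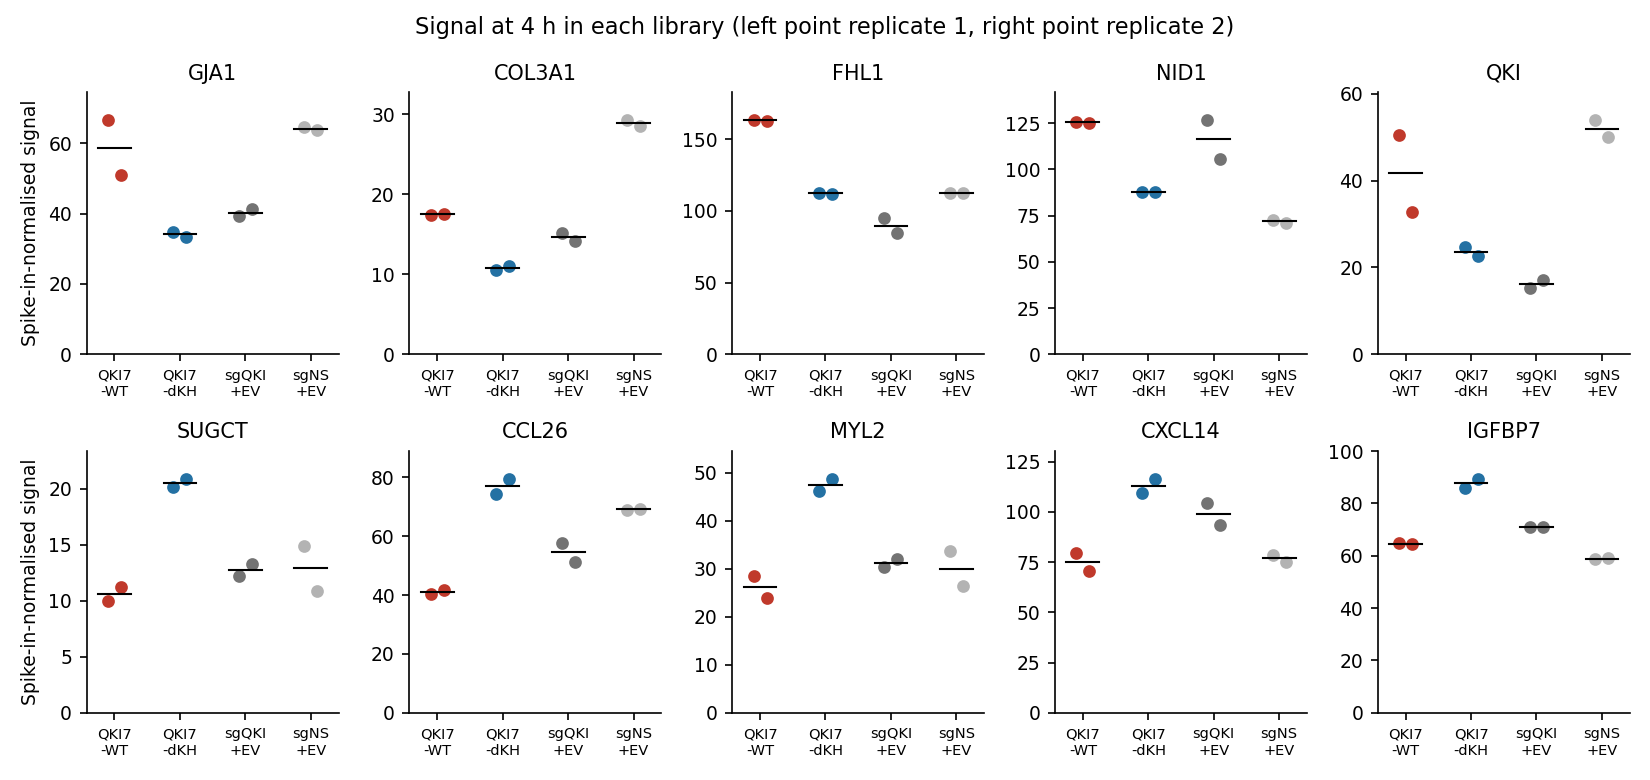
Spike-in-normalised signal at 4 h (vertical axis, linear from 0) of 10 genes in QKI7-WT, QKI7-dKH, sgQKI+EV and sgNS+EV; points are libraries (replicate 1 left, replicate 2 right) and lines are means. GJA1 and QKI differ between the QKI7-WT libraries (66.6 and 51.0; 50.5 and 32.8), while COL3A1, FHL1 and NID1 do not, and SUGCT, CCL26, MYL2 and IGFBP7 are highest in QKI7-dKH.

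Further genes past the threshold lost their call without at least 1 library. MMP13, a collagenase of the matrix, had 14.9 and 11.3 in QKI7-WT against 6.29 and 7.79 in QKI7-dKH (0.80 log2, adjusted p = 0.00125). MMP7, matrilysin, had 11.4 and 9.64 in QKI7-WT against 6.97 and 6.38 in QKI7-dKH (0.58 log2, adjusted p = 0.0228). FAP, a serine protease of activated fibroblasts, had 13.6 and 9.48 in QKI7-WT against 7.16 and 7.41 in QKI7-dKH (0.58 log2, adjusted p = 0.0485). In each of them replicate 1 was the higher QKI7-WT library. SPOCK1, a testican proteoglycan, differed by 0.61 log2 (adjusted p = 0.00503), SEMA3E, a secreted guidance cue, by 0.64 (0.0075), and TFPI, the tissue factor pathway inhibitor, by 0.58 (0.0389). The transcription factors E2F5 and HEY1 differed by 0.70 log2 each (adjusted p = 0.0364 for E2F5 and 0.0166 for HEY1). For E2F5, replicate 1 stood 0.99 log2 and replicate 2 stood 0.41 log2 above the QKI7-dKH mean. CAPSL, a calcyphosine-like protein, differed by 0.66 log2 (adjusted p = 0.0423), and C9orf84 by 0.60 (0.00751). With library totals the calls of CAPSL, E2F5, FAP, MMP7 and TFPI were lost, at differences of 0.58, 0.62, 0.50, 0.50 and 0.50 log2 (adjusted p between 0.0526 and 0.0824).

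Among the other lower genes, POP3 had the most negative difference, with a signal of 2.996 and 2.287 in QKI7-WT against 6.98 and 9.49 in QKI7-dKH (-1.34 log2, SE 0.25, adjusted p = 0.0097). TNFRSF11B, osteoprotegerin, a decoy receptor that restrains osteoclasts, had 5.12 and 4.44 in QKI7-WT against 7.58 and 9.15 in QKI7-dKH (-0.69 log2, adjusted p = 0.0097). FST, the activin antagonist follistatin, had 34.6 and 34.9 in QKI7-WT against 50.1 and 46.6 in QKI7-dKH (-0.47 log2, adjusted p = 0.00476). POP3 and TNFRSF11B were low in every library, so small changes in signal weigh on their log2 differences. SAA1, an acute-phase protein, differed by -0.63 log2 (adjusted p = 0.0229), and ITGB2, the beta chain of leukocyte integrins, by -0.66 (0.00574). The matrix genes MFAP5, COL13A1 and ECM1 differed by -0.64, -0.60 and -0.43 log2 (adjusted p = 0.0423, 0.0183 and 0.0117). SERPINB7, a serine protease inhibitor, differed by -0.83 log2 (adjusted p = 0.0133), and OASL, an interferon-induced antiviral protein, by -0.51 (0.0256).

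The genes called at 4 h were also read at the other times, on the spike-in scale. On that scale the median of all genes was -0.15 log2 at 0 h, 0.09 at 4 h and -0.15 at 8 h. A shift of most genes thus enters the counts and differences that follow, and its part in them was not tested. Of the 103 genes higher at 4 h, 5 were also higher and passed at 0 h and 6 at 8 h. Only 6 of all genes were called higher at 0 h and 6 at 8 h (0.0478% each), so neither overlap could exceed 6. Called lower were 465 genes at 0 h and 607 at 8 h (3.75% and 4.89% passed in either direction). The overlaps therefore cannot show whether the higher genes are more particular to 4 h than the lower ones. Of the 20 lower genes, 16 were also lower and passed at 0 h, where 3.71% of all genes were lower, and 17 at 8 h, where 4.84% were. Of the 16 genes higher without QKI7-WT replicate 1, 3 were also higher at 0 h and 5 at 8 h, and of the 18 lower ones 15 were also lower at 0 h and 17 at 8 h. IGFBP7 was lower by 0.76 log2 at 0 h, by 0.44 at 4 h and by 0.85 at 8 h in QKI7-WT than in QKI7-dKH (adjusted p = 4.38e-07, 0.0007 and 5.43e-08). MYL2 differed by -0.96 log2 at 0 h and by -1.19 at 8 h, and SUGCT by -1.05 and -0.93, so their difference was there before the chase began. GJA1 differed by 0.15 log2 at 0 h (adjusted p = 0.323) and by 0.29 at 8 h (0.0833), against 0.76 at 4 h. COL3A1 and FHL1 were higher in QKI7-WT at all 3 times: COL3A1 by 0.35 log2 at 0 h and 0.41 at 8 h (adjusted p = 0.0141 and 0.00359), and FHL1 by 0.25 and 0.40 (0.0471 and 0.00338). For NID1 the differences of 0.17 log2 at 0 h and 0.20 at 8 h did not pass (adjusted p = 0.169 and 0.124).

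The median of all genes was -0.15 log2 at 0 h and at 8 h, against 0.09 at 4 h, all on the spike-in scale. The change of the difference between 0 h and 4 h, tested as an interaction, passed for 2012 genes (16.0%), of which 2004 were upward and 8 downward (0.0638%), with a median change of 0.24 log2. The median change was 0.02 log2 with library totals, -0.0022 with totals without ribosomal RNA and 0.005 with quantile normalisation. Between 4 h and 8 h it passed for 2020 genes (16.1%), of which 2017 were downward and 3 upward (0.0239%). The median change was then -0.23 log2 on the spike-in scale, -0.07 with library totals, -0.06 with totals without ribosomal RNA and 0.002 with quantile normalisation. With library totals in place of the spike-in scale limma called 0 genes in either change, with 701 and 1521 genes at an unadjusted p under 0.05. Leaving out QKI7-WT replicate 1 at 4 h also gave 0 in either change, with 3240 and 2962 genes at an unadjusted p under 0.05.

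**Figure D4:**
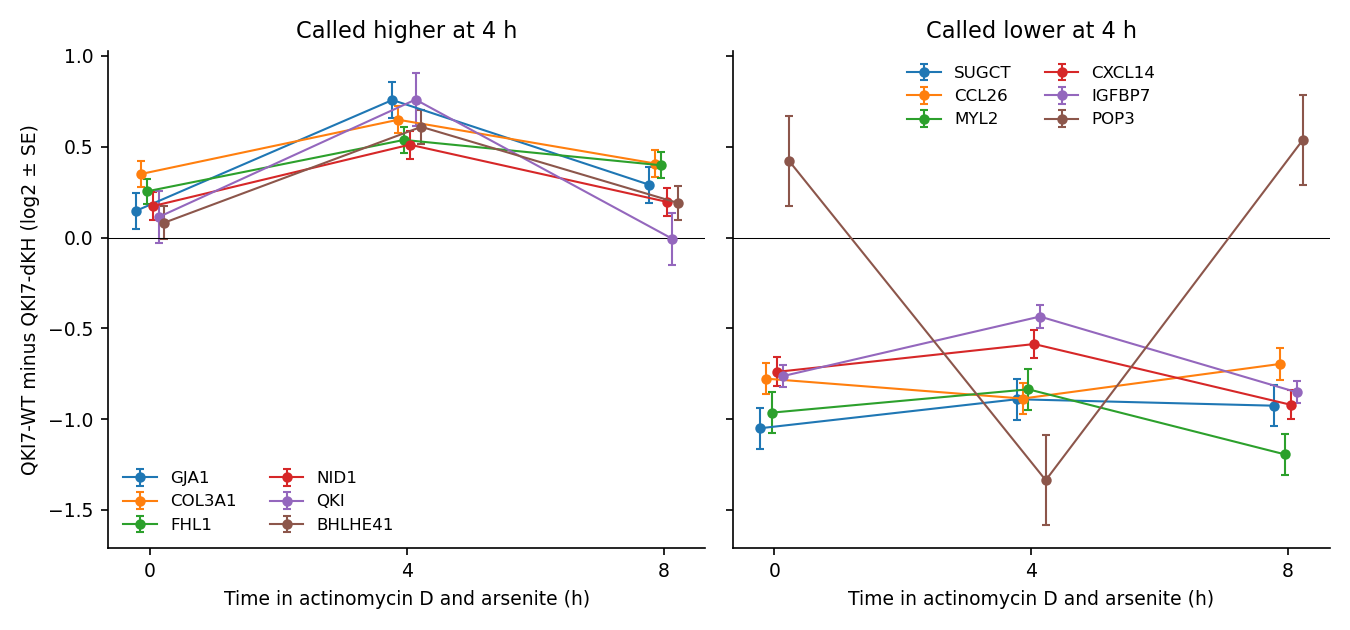
Difference between QKI7-WT and QKI7-dKH (log2 ± SE from the fit, vertical axis) at 0, 4 and 8 h in actinomycin D and arsenite (horizontal axis; points are shifted sideways for legibility) for 6 genes higher and 6 genes lower at 4 h. The higher genes peak at 4 h, while the lower genes other than POP3 lie below 0 at all 3 times. On this spike-in scale the median of all genes was also highest at 4 h (0.09 log2, against -0.15 at 0 h and at 8 h).

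Against sgQKI+EV at 4 h, the genes that passed whichever library was left out fell into different patterns. These contrasts share their QKI7-WT or QKI7-dKH libraries with the main comparison, so they are given side by side and not as separate evidence. FHL1 was above sgQKI+EV by 0.86 log2 in QKI7-WT (adjusted p = 6.79e-07) and by 0.32 in QKI7-dKH (0.0304). SEPT2 was above it by 0.69 log2 in QKI7-WT (adjusted p = 4.31e-06), while the 0.15 of QKI7-dKH did not pass (0.21). NID1 showed the other arrangement, with 0.11 log2 in QKI7-WT (adjusted p = 0.255) and -0.40 in QKI7-dKH (0.0153), and MMP13, which is not among the 16, likewise had -0.07 in QKI7-WT (0.706) and -0.87 in QKI7-dKH (0.0015). Among the lower genes, SUGCT differed from sgQKI+EV by -0.24 log2 in QKI7-WT (adjusted p = 0.0967) and by 0.65 in QKI7-dKH (0.0067). MYL2 differed by -0.25 in QKI7-WT (adjusted p = 0.0879) and by 0.59 in QKI7-dKH (0.0144). CCL26 lay between, lower by 0.40 log2 in QKI7-WT (adjusted p = 0.00185) and 0.49 above in QKI7-dKH (0.0067). Over all genes, QKI7-WT was higher than sgQKI+EV, past the threshold, for 37.7% and lower for 0.43%, and QKI7-dKH was higher for 2.16% and lower for 0.0558% (2.22% in all). These shares are on the spike-in scale and include QKI7-WT replicate 1. On that scale endogenous signal summed to 980669 and 883686 in sgQKI+EV, against 1137890 and 1089595 in QKI7-WT. The shares with library totals or without replicate 1 are not given here.

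The same genes were read in sgQKI+EV against sgNS+EV at 4 h. Those libraries enter neither mean of the main comparison, but they share its estimate of the spread. The gap between the QKI7-WT libraries has the r of 0.68 with this contrast given above. Replicate 1 was above replicate 2 in 97 of the 103 higher genes, and the share over all genes is not given. Of the 103 genes higher in QKI7-WT, 79 were lower in sgQKI+EV than in sgNS+EV at 4 h (76.7%, against 34.0% of all genes) and 2 were higher (against 6.74%). Their median there was -0.41 log2, against -0.15 over all genes. Since that contrast also follows GC content, the shares are given in 3 GC classes of equal size: 83.1% against 68.3% of all genes in the low class, 75% against 30.5% in the middle class and 37.5% (8 genes) against 4.69% in the high class. Of the 16 genes higher without QKI7-WT replicate 1, 10 were lower in sgQKI+EV (62.5%) and 1 was higher, with a median of -0.22 log2. COL3A1 had 15.2 and 14.1 in sgQKI+EV against 29.3 and 28.5 in sgNS+EV (-0.94 log2, adjusted p = 2.7e-07). BHLHE41 had 27.81 and 27.03 in sgQKI+EV against 59.0 and 54.6 in sgNS+EV (-1.02 log2, adjusted p = 7.51e-07). NID1 went the other way, with 127 and 106 in sgQKI+EV against 72.7 and 71.0 in sgNS+EV (0.68 log2, adjusted p = 1.12e-05). Of the 20 genes lower in QKI7-WT, 3 were lower and 6 higher in sgQKI+EV.

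The hexamer was counted in all annotated coding genes, of which 34.6% (3895 of 11257) held it in the 3′ UTR at 0.354 matches per kilobase. Of the genes higher in QKI7-WT, 67.0% (65 of 97) held it at 0.655 per kilobase, and of the lower genes 31.6% (6 of 19) at 0.552 per kilobase. The median 3′ UTR was 1413 bases in the higher genes, 544 in the lower genes and 1129 in all coding genes, so per base both groups were above all coding genes. Low GC content goes with the hexamer, so the 3 GC classes were compared. The higher genes held it in 69.6%, 63.6% and 62.5% of cases from the low to the high class, against 57.9%, 33.9% and 12% of all coding genes. Of the 16 genes that were higher without QKI7-WT replicate 1, 14 held it at 1.14 per kilobase, and of the 17 annotated coding genes that were lower without it, 7 held it (41.2%) at 0.518 per kilobase. With every library corrected for GC content, 310 coding genes were higher and 50.3% of them held it. From the low to the high GC class the share of these genes was 70.1%, 53.4% and 26%. Of the 44 coding genes that were lower in that fit, 12 held it (27.3%). Over all genes, the median difference of replicate 2 did not rise with the number of matches: it was 0.05 log2 in genes without a match and 0.03 in genes with 4 or more. For replicate 1 the medians were 0.10 log2 and 0.39, and within the low GC class 0.33 and 0.42.

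**Figure D5:**
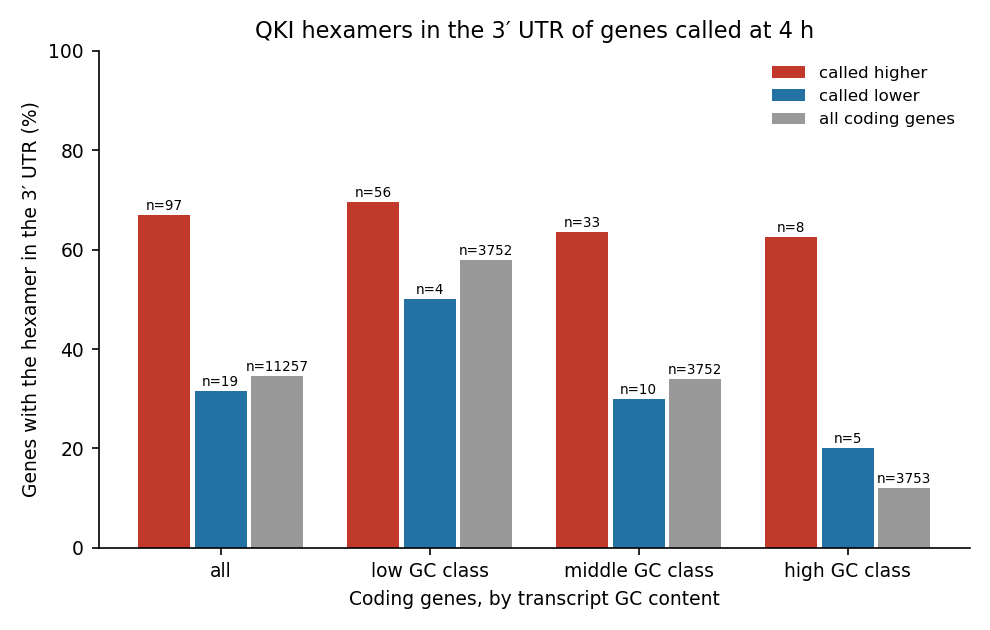
Share of genes with ACTAAC or ACTAAT in the 3′ UTR (vertical axis, percent) among genes higher in QKI7-WT, genes lower in QKI7-WT and all coding genes, for all genes and by 3 classes of transcript GC content (n above each bar). The share of the higher genes lies between 62.5% and 69.6% in every class, while that of all coding genes falls from 57.9% to 12%.

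Of 41 gene lists, few had members past the threshold, and their counts and medians are read beside those of all genes: 0.821% higher, 0.159% lower and 0.09 log2. In the extracellular matrix list (33 measured) 3 genes were higher and 2 lower, with a median of -0.02 log2. The higher ones were COL3A1, NID1 and SPARC, and the lower ones MFAP5 and COL8A1. Without QKI7-WT replicate 1, COL3A1 and NID1 were higher and MFAP5 was lower. SPARC, or osteonectin, the collagen-binding glycoprotein of bone, had 1039 and 942 in QKI7-WT against 768 and 790 in QKI7-dKH (0.34 log2, adjusted p = 0.0256). COL8A1, a short-chain collagen, had 12.9 and 11.7 in QKI7-WT against 15.4 and 18.4 in QKI7-dKH (-0.42 log2, adjusted p = 0.0384). Of 7 secreted inflammatory genes, CCL26 and CXCL14 were lower, also without QKI7-WT replicate 1, and none was higher, with a median of -0.10 log2; LIF differed by -0.14 log2 (adjusted p = 0.265) and IL32 by 0.43 (0.0543).

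In the lists on QKI, stress granules and mRNA decay 1 gene or none passed in each, against 0.98% of all genes, and none of their members passed without QKI7-WT replicate 1. Of 51 stress granule proteins 1 was higher, IGF2BP2, an RNA-binding protein that stabilises mRNAs, with 133 and 113 in QKI7-WT against 92.4 and 94.6 in QKI7-dKH (0.39 log2, adjusted p = 0.0326). The list median was 0.28 log2 for replicate 1 and 0.09 for replicate 2. Of 18 QKI-linked transcripts and STAR family members only QKI passed, and CDKN1B, a cell-cycle inhibitor reported as a QKI target in rat cells, differed by 0.48 log2 (adjusted p = 0.082). Of 14 decay adaptors ZFP36L1, which promotes the decay of AU-rich mRNAs, was higher with 80.3 and 71.3 in QKI7-WT against 57.3 and 58.4 in QKI7-dKH (0.38 log2, adjusted p = 0.0212). None of 61 members of the mRNA decay machinery and none of 24 m7G methyltransferases and cap-binding factors passed; their medians were 0.11 and 0.12 log2.

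Of 42 mitotic genes 2 were higher (against 0.821% of all genes) and none lower, and neither of the 2 passed without QKI7-WT replicate 1. The list median was 0.18 log2, 0.21 for replicate 1 and 0.13 for replicate 2. CKS2, a cofactor of cyclin-dependent kinases, had 178 and 175 in QKI7-WT against 133 and 142 in QKI7-dKH (0.36 log2, adjusted p = 0.0271). CKAP2, a spindle protein, had 112 and 85.6 in QKI7-WT against 76.8 and 70.6 in QKI7-dKH (0.41 log2, adjusted p = 0.0394). TAOK1 was the gene that passed among 37 Hippo pathway components, of whose kinases it is an upstream activator (0.40 log2, adjusted p = 0.0409). Of 12 long non-coding RNAs TUG1 was higher, with 95.04 and 84.53 in QKI7-WT against 73.4 and 73.6 in QKI7-dKH (0.28 log2, adjusted p = 0.0485). Of 389 zinc finger genes ZNF664 (0.42 log2, adjusted p = 0.00376) and ZNF281 (0.35 log2, 0.049) were higher. The list median of the zinc finger genes was 0.27 log2 for replicate 1 and -0.03 for replicate 2. With library totals TAOK1, CKAP2, TUG1 and ZNF281 no longer passed, at differences of 0.32, 0.32, 0.20 and 0.27 log2 (adjusted p between 0.0824 and 0.149).

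In the groups that follow no gene passed. The 77 cytosolic ribosomal proteins had a median of 0.15 log2, 0.19 for replicate 1 and 0.10 for replicate 2. The 77 nuclear-encoded respiratory chain genes had a median of 0.00 log2, and the 26 genes of cholesterol biosynthesis one of -0.10, with -0.12 for replicate 1 and -0.07 for replicate 2. The 48 SR proteins, hnRNPs and splicing regulators had a median of 0.18 log2, which was 0.30 for replicate 1 and 0.07 for replicate 2. No list was tested as a set.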

How the data were processed

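PolyA RNA libraries (KAPA stranded kit, Illumina NovaSeq, per the labels' protocols) were read from 1 deposited table. Its values are a linear signal, scaled by the authors to ERCC spike-ins; this is read from the deposited signal itself, whose ERCC sums are nearly equal in all libraries, and the unit before that step was not given in the sources used here. STAR, RSEM and GRCh38 are named, without versions, in the submitters' processing notes. No read counts were given, so the depth is unknown and precision comes from the replicate libraries (median SE of a difference 0.11 log2).

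Groups were taken from the sample titles. Log2(value + 1) was fitted as 12 group means with a mean-variance trend (limma 3.58.1, R 4.3.3) over 24 libraries (12 residual degrees of freedom, prior 9). Contrasts were two-sided, with Benjamini-Hochberg adjustment over 12547 genes at 0.05. Requiring a signal of 1 or more in 2 or more libraries removed 0 genes. Log2 differences and folds are of values plus 1, so they understate changes of low genes. The fit was tested on simulated data. Alternatives were other scalings (totals, quantile), a pseudocount of 0.1, filters, a replicate block, fits of the compared groups alone, leaving out each library and, chosen after seeing the data, a correction for GC content (a lowess of each library's deviation on transcript GC, span 0.3). GC content, lengths and 3′ UTRs are of 1 GENCODE 29 transcript per gene; 11955 of 12547 symbols matched. 38 rows copy an earlier row and were kept.

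Named genes are the 15 highest and 15 lowest that passed with a mean of at least 5 and no overlap between groups, up to 4 passing members per list, the 6 highest and lowest changes between times, and the 6 with the largest gap between the QKI7-WT libraries with a mean of at least 20, besides QKI, METTL1, WDR4 and G3BP1. Other genes were picked after their values were seen. The comparison and the gene lists were chosen with earlier results of these data known.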

Additional observations from a re-analysis of the deposited data

Results flagged for a closer look

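The QKI7-WT minus QKI7-dKH difference changed between times, by an interaction term in limma, for 2012 genes from 0 h to 4 h and for 2020 genes from 4 h to 8 h, and both counts fell to 0 with library totals. From 0 h to 4 h the log2 difference changed upward by 1.04 in RWDD3, 1.037 in ASB3, 0.962 in CBWD3, 0.938 in C15orf65, 0.904 in FAM72A and 0.903 in PILRB. It changed by -1.759 in POP3, by -1.303 in GPR75-ASB3, by -1.141 in SYS1-DBNDD2, by -1.073 in HIST1H4J and by -0.4855 in TMSB15B. Some of these rows were low or had replicates apart. GPR75-ASB3 had 6.62 and 1.96 in QKI7-dKH at 0 h. In QKI7-WT at 4 h SYS1-DBNDD2 had 1.76 and 3.12, HIST1H4J 16.35 and 28.71, and RWDD3 23.63 and 11.85. PILRB (13.19 and 13.23) and TMSB15B (14.63 and 14.58) were level there. ASB3 and the readthrough locus GPR75-ASB3 share sequence, as do CBWD3 and FAM72A with their near-identical copies, so the split of reads between such rows is uncertain.

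From 4 h to 8 h the difference changed by 2.051 in SNHG25, a snoRNA host gene, by -1.35 in SCARNA16, a small Cajal body RNA, and by -1.237 in UBE2D1. It changed by -1.096 in LYPLA1, by -1.076 in RWDD3, by -1.072 in RFK and by -1.07 in ZNF644. For UBE2D1 the signal at 4 h was 29.6 in QKI7-WT replicate 1 and 13.6 in replicate 2, against 11.7 and 9.91 in QKI7-dKH. For ZNF644 it was 21.4 in replicate 1 and 9.66 in replicate 2, against 9.29 and 8.20 in QKI7-dKH, so in both genes replicate 2 lay near the QKI7-dKH libraries.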

How the results depend on the processing

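The count of 123 genes at 4 h was 96 with library totals, 161 with totals without ribosomal RNA, 224 with quantile normalisation, 192 with a mean signal of at least 5, 437 with the replicate block, 374 with the GC correction, 43 with an absolute log2 difference of at least 0.5 and 20 to 4510 when 1 library was left out. In the compared groups alone it was 0 (565 genes at an unadjusted p under 0.05 in limma). The samples share only a replicate number: the deviations of same-numbered libraries correlated at 0.198 at 4 h with 2 pairs, against -0.424 at 0 h and -0.006 at 8 h. With the replicate block 402 genes were higher and 35 lower. For the change in the difference from 0 h to 4 h and the change in the difference from 4 h to 8 h, the counts of 2012 and 2020 were 0 and 0 with totals, with totals without ribosomal RNA, with quantile normalisation and in the compared groups alone, where 636 to 2589 and 1045 to 2933 genes had an unadjusted p under 0.05. They were 461 and 662 with the log2 minimum of 0.5, 3414 and 2117 with the GC correction, and 0 to 5292 and 0 to 5220 when 1 library was left out. The change from 0 h to 4 h dropped to 0 without any of 6 of its 8 libraries, namely QKI7-WT replicate 1 and both QKI7-dKH libraries at 4 h, and at 0 h QKI7-WT replicate 2 and both QKI7-dKH libraries. The change from 4 h to 8 h was 0 without QKI7-WT replicate 1 or either QKI7-dKH library at 4 h or QKI7-dKH replicate 2 at 8 h, and 2 and 893 without QKI7-WT replicates 2 and 1 at 8 h. Where 1 library of a group was left out, the other was assumed to vary like those of the other groups.

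The median of all genes was -0.0188 log2 with totals without ribosomal RNA, 0.0042 with quantile normalisation and 0.05 to 0.16 when 1 library was left out. QKI was at 0.67 log2 with totals, 0.64 without ribosomal RNA, 0.64 with quantile normalisation and 0.46 to 1.06 when 1 library was left out, and its call was lost in the compared groups alone (0.76 log2, adjusted p = 0.705). METTL1, at -0.02 log2, was 0.037 with the GC correction and -0.16 to 0.12 when 1 library was left out, and WDR4, at -0.13, ran from -0.28 to 0.012; neither passed in these fits. Of 39 medians of lists and row groups, 21 moved by over 1 SD of the QKI7-WT libraries with totals, 28 with totals without ribosomal RNA and 25 with quantile normalisation. The causes were not tested. The depth of the libraries is unknown and 2 libraries a group limit the precision.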

Other observations

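The genes with the widest gap between the QKI7-WT libraries at 4 h, given as a description, were RFK, TMEM65, DYNLT3, PPP1R2, LYPLA1 and HMGN5 on the side of replicate 1. RFK, riboflavin kinase, had a signal of 39.3 and 19.6 in QKI7-WT, against 18.2 and 18.8 in QKI7-dKH and 32.7 and 29.9 in sgNS+EV. PPP1R2, an inhibitor of protein phosphatase PP1, had 48.2 and 25.2 in QKI7-WT, against 24.9 and 23.7 in QKI7-dKH and 46.6 and 38.8 in sgNS+EV. On the side of replicate 2 stood RNAs without a usual polyA tail. RNA5-8S5, a ribosomal RNA, had 1767 and 8921 in QKI7-WT, against 7608 and 8619 in QKI7-dKH and 2079 and 3244 in sgNS+EV. SNORD3A, the U3 small nucleolar RNA, had 48.1 and 186 in QKI7-WT, against 178 and 139 in QKI7-dKH. RNA5S1 and its identical copies had 36.8 and 106 in QKI7-WT, against 87.6 and 70.0 in QKI7-dKH.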
